A study of Mus musculus with 7 samples.

Results

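Mitochondrial ribosomal proteins are the nuclear-encoded proteins of the ribosome that works inside mitochondria. Their transcripts were followed in pools of ovulated mouse oocytes with and without Nlrp2. Members were all genes of the deposited gene table whose symbol was Mrpl or Mrps followed by a digit. The rule found 77 of 18951 symbols, 48 of the Mrpl and 29 of the Mrps series, and 0 were pseudogene or opposite-strand symbols. Both groups were C57BL/6 mice of 4 weeks: wild-type (WT) females gave 3 pools, WT 1 to WT 3, and Nlrp2-null females gave 4, null 1 to null 4. Each pool held about 150 oocytes gathered from 3 to 4 females of 1 genotype. The oocytes were recovered with their cumulus cells from the ampulla of the oviduct and then stripped of them with hyaluronidase. Nlrp2 is a maternal effect gene, one whose product in the egg is needed by the embryo, and the design asked how the transcriptome of the egg differs without it. The null allele itself is not described in the sources used here.

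The mitochondrial ribosome makes only the core subunits of the respiratory chain and the ATP synthase that mitochondrial DNA still encodes. All of its proteins come from nuclear genes, are made on cytosolic ribosomes and are imported, and many of them have no bacterial counterpart. A fully grown oocyte is largely silent in transcription, carries a very large number of mitochondria and relies on stored maternal messenger RNA, so a transcript level in an ovulated egg describes a store and not current synthesis of RNA.

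The unit throughout is the deposited normalized count, which is the read count of a gene divided by a size factor of its pool. Recovered reads came to between 71073973 and 96330083 per pool. As a check of the labels, Nlrp2 was at 15527, 20130 and 16792 normalized counts in the WT pools and at 107, 8.19, 1.96 and 63.8 in the null pools (log2 fold change -9.70). Oocyte markers made up between 1.23% and 1.41% of every pool, and Zp3, a zona pellucida glycoprotein, lay between 9699 and 14348. Markers of cumulus and granulosa cells were also present: 32 of 33 listed genes were in the table, and of these 1 to 3 were at 0 in each pool. Their sum ranged from 0.0997% to 0.136% of the WT pools and from 0.118% to 0.149% of the null pools, with the highest sums in null 3 and null 4. Amh was at 0 in 5 of the pools, while Fst, which encodes follistatin, reached 4001 in null 4. Of 30 tested markers, 25 had a positive and 5 a negative log2 fold change, null minus WT, with a median of 0.35. An unadjusted p under 0.05 (limma) was found for 6 of them (20%), all higher in null, against 10.2% of all tested genes. The number with an adjusted p under 0.05 was 0. Because these are bulk pools, fewer cells of a type and less RNA per cell cannot be told apart, and the part of cumulus RNA in the results below was not tested.

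All 77 members were detected in every pool and passed the filter on low values, a mean of at least 10 normalized counts. Their means over the 7 pools ran from 14.2 for Mrps34 to 5189 for Mrps33, with a median of 435. A mean of 1000 or more was reached by 19 members, 43 lay between 100 and 1000, and 15 were under 100. Levels were compared between genes only per kilobase (kb) of messenger RNA, taking the joined exons of a gene's coding transcripts in the GENCODE basic set as its length. On that scale the members spanned 218-fold, from 15.5 to 3374 normalized counts per kb, with a median of 300.2 and quartiles of 125 and 549. The median of the 13722 tested coding genes was 211, with quartiles of 37.6 and 1004, and 45 of the 77 members lay above that median. The members were short, with a median length of 1363 bases against 3353 for all tested coding genes. The nuclear-encoded subunits of oxidative phosphorylation had a similar median of 306 per kb, and the proteins of the cytosolic ribosome one of 1142.

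**Figure D1:**
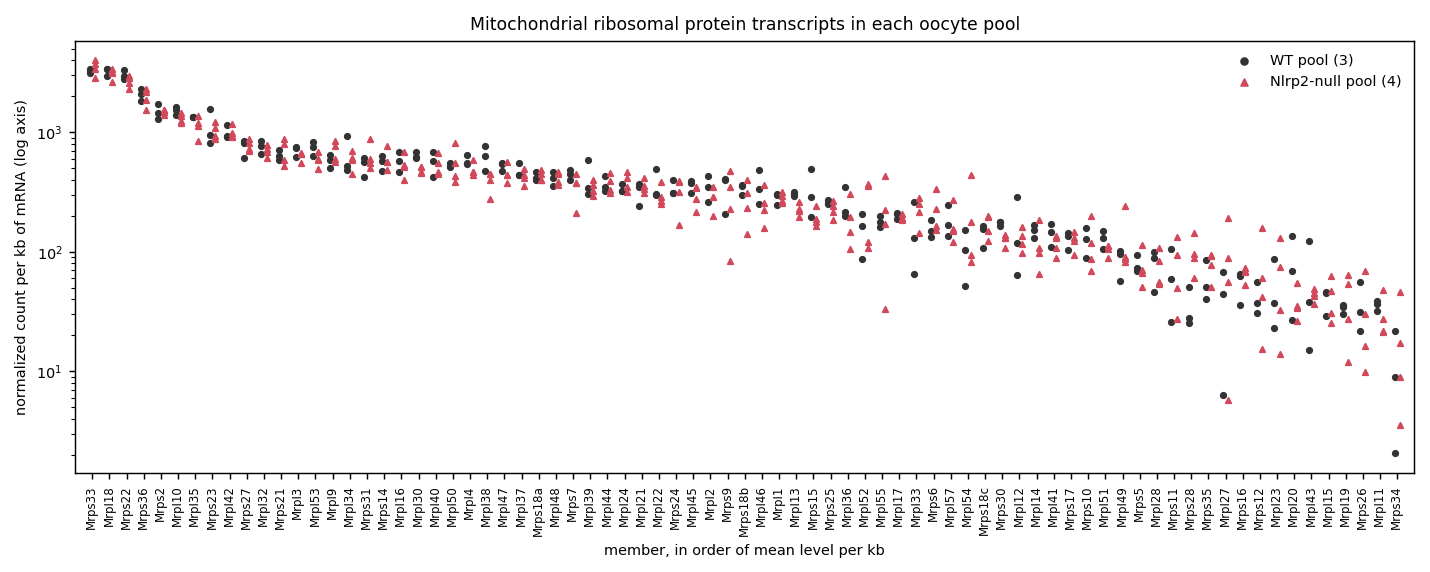
Normalized count per kb of messenger RNA (log axis) of each of the 77 members, in order of their mean; circles are the 3 WT pools and triangles the 4 Nlrp2-null pools. Levels run from 3374 per kb for Mrps33 to 15.5 for Mrps34, the colours are mixed along the whole order, and points of 1 member scatter more widely at the low end.

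The subunit proteins are held in fixed proportions in the finished ribosome, but their messengers were far from even. The 10 most abundant members held 49.4% of the summed level per kb. Mrps33, of the small subunit, stood first with 3374 per kb, followed by Mrpl18 with 3154, Mrps22 with 2825, Mrps36 with 2002 and Mrps2 with 1484. Mrpl18 is the counterpart of a bacterial protein of the central protuberance of the large subunit, and Mrps22 is a small-subunit protein without a bacterial counterpart. The pools of Mrps33 were at 4801, 5034 and 5170.5 normalized counts in WT and at 5679, 5158, 4348 and 6131 in null. Those of Mrpl18 were at 4124, 3625 and 4142 in WT and at 4092, 3825, 3234 and 3874 in null, and those of Mrps22 at 3332, 3538 and 3996 in WT and at 3543, 3417, 2759 and 3085 in null. Null 3 was the lowest pool for each of these 3 genes, and for each the groups overlapped. Mrps33, Mrpl18 and Mrps22 are neighbours in the order whose pools overlap in level per kb, so the order among them is within their spread, while Mrps36 came below them in every pool.

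At the other end stood Mrps34 with 15.5 per kb, Mrpl11 with 32.3, Mrps26 with 33.4, Mrpl19 with 36.8 and Mrpl15 with 40.9. Mrps34 was at 20.0, 1.90 and 8.23 normalized counts in WT and at 3.25, 8.19, 42.2 and 15.7 in null, where 1.90 stands for 2 reads. Mrpl11, a protein of the stalk base where translation factors dock, was at 113, 98.8 and 119 in WT and at 66.1, 147, 65.7 and 84.8 in null. The place of some members at either end depended on the exons counted. Measured over all annotated exons, 3 of the 5 highest and 2 of the 5 lowest kept their place among the 5. Mrps22 was at 847 per kb on that measure, against 2825 over the coding transcripts.

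Medians per kb of the role groups were 318 for the 30 large-subunit proteins with a bacterial counterpart and 309 for the 20 large-subunit proteins particular to mitochondria. For the small subunit they were 221 for 16 proteins with a bacterial counterpart and 413 for 10 particular to mitochondria. The range within each group was much wider than these differences, for example from 15.5 to 3374 in the last of them. Mrps28 was kept in that last group, although its product has been likened to bacterial S1.

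Against this background of levels, no member was called different between null and WT pools. The count was 0 of 77 by limma at a Benjamini-Hochberg adjusted p under 0.05, where 10 of all 15071 tested genes, or 0.0664%, were called. edgeR's quasi-likelihood test also called 0 members (0.0464% of all genes), as did DESeq2 (1.54% of the 12991 genes to which it gave an adjusted p). The smallest adjusted p of any member was 0.387 by limma, 0.403 by edgeR and 0.223 by DESeq2, each for Mrpl38. At an unadjusted p under 0.05 limma listed 1 member, Mrpl38, against 10.2% of all tested genes (4.93% lower and 5.28% higher in null). The log2 fold change, null minus WT, was negative for 49 members and positive for 28, while 49.3% of all tested genes had a negative value. Its median was -0.08 over the members and 0.01 over all tested genes, and single members ran from -0.79 (Mrpl20) to 1.45 (Mrps28).

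**Figure D2:**
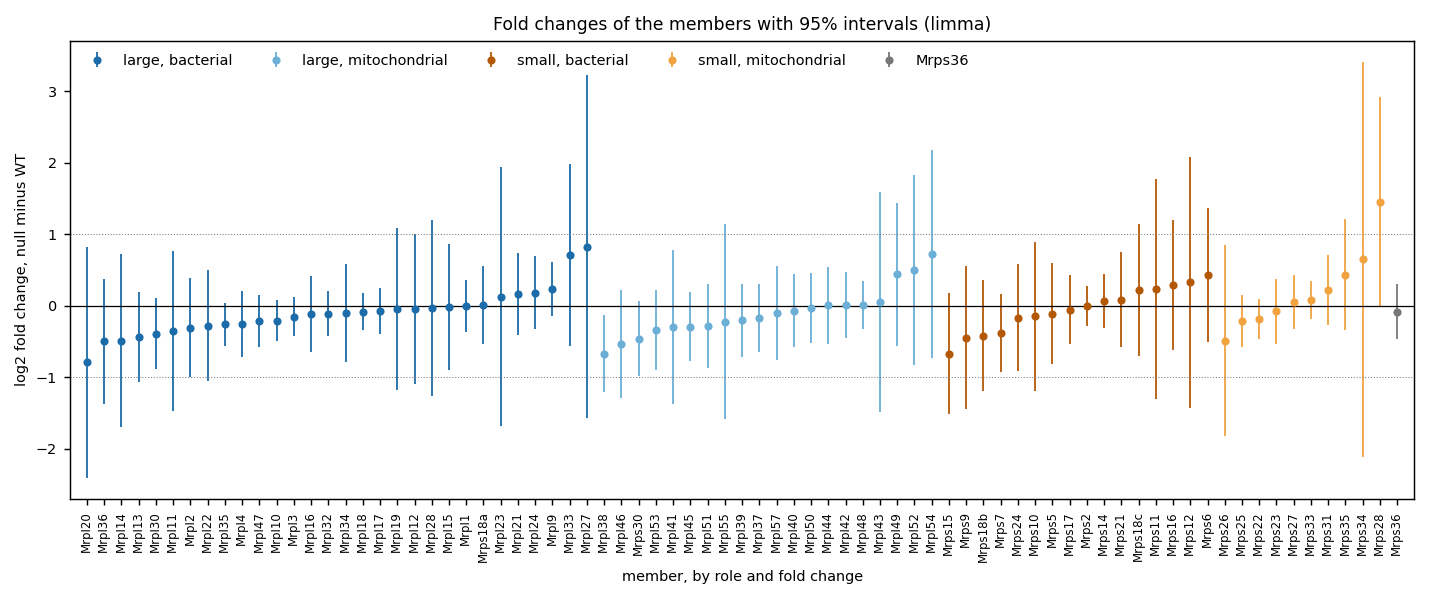
Log2 fold change, null minus WT, of each member with its 95% interval from limma, grouped by place in the ribosome and ordered by value within a group; dotted lines mark a 2-fold change. All intervals except that of Mrpl38 (-1.20 to -0.13) cross 0, and the intervals of low members such as Mrps34 are widest.

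In 5 members the null and WT pools did not overlap, 6.49% of the members against 9.91% of all tested genes. Of these, 4 were lower in every null pool (5.16% of all genes) and 1 was higher (4.74%). Mrpl38 belongs to the large subunit, is particular to mitochondria and sits in the central protuberance. It lies on chromosome 11, bases 116131817 to 116138868 (GRCm38, minus strand). The pools held 674, 1075 and 890.0 normalized counts in WT 1 to WT 3 and 632, 565, 635 and 386 in null 1 to null 4. WT 1 was only slightly above the highest null pools, and null 4 was the lowest. The group means were 879.7 ± 201 (SD, n = 3) and 554 ± 117 (SD, n = 4), and the log2 fold change was -0.67 with a standard error (SE) of 0.254 and an adjusted p of 0.387 (limma). Without WT 2, its unadjusted p by limma was 0.107, without WT 3 it was 0.0563, and without null 4 it was 0.0506.

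Mrps30 (chromosome 13, 118378381 to 118387252, minus strand) is named after the small subunit but its product is part of the large one. It was at 588, 547 and 592 normalized counts in WT and at 432, 433, 357 and 457 in null. Each group was tight, and all 4 null pools lay below all 3 WT pools. This amounted to a log2 fold change of -0.46 (SE 0.247, limma adjusted p = 0.561). Mrpl30 (chromosome 1, 37890477 to 37898535, plus strand) has a bacterial counterpart of the same number. Its pools were at 602, 659.6 and 594 in WT and at 449, 499.7, 439 and 498 in null. Again the WT pools formed the upper cluster, with a log2 fold change of -0.39 (SE 0.234, limma adjusted p = 0.609).

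Mrpl13 (chromosome 15, 55534094 to 55557748, minus strand), also with a bacterial counterpart, was at 371, 389.7 and 358 in WT and at 269.9, 281, 239 and 317 in null. With an SE of 0.297 its log2 fold change came to -0.44 (limma adjusted p = 0.657), and null 3 was the lowest pool. The exception in direction was Mrps28 (chromosome 3, 8802146 to 8923918, minus strand), a small-subunit gene near the low end of the family. It was at 40.0, 21.9 and 19.8 normalized counts in WT and at 112, 47.1, 75.5 and 69.1 in null. The lowest null pool, null 2, lay just above the highest WT pool, WT 1. Mrps28 had the largest fold change of the family, 1.45 on the log2 scale, with an interval from -0.02 to 2.92 and an adjusted p of 0.499 by limma.

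The smallest spread within groups, among members with a mean of at least 100, was found for Mrpl17, Mrpl30, Mrpl10, Mrps30 and Mrps18a, with standard deviations of log2 values from 0.0794 to 0.132. Mrpl17, whose bacterial counterpart lies near the exit of the peptide tunnel, stayed between 1394 and 1612 normalized counts in the 7 pools. Mrpl10, which anchors the stalk, was at 2390.2, 2595 and 2749 in WT and at 2052, 2318, 2123 and 2449.6 in null. Only null 4 exceeded the lowest WT pool, for a log2 fold change of -0.21 (SE 0.135, limma adjusted p = 0.642). Mrpl35, an abundant member, showed nearly equal WT pools of 5013, 4946 and 4958 beside null pools of 4423, 4181, 3165 and 5122. Null 4 was the highest of all 7 pools for Mrpl35 and null 3 the lowest, and its log2 fold change of -0.26 had an adjusted p of 0.573 (limma).

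The largest spread among members with a mean of at least 100 belonged to Mrpl55, Mrps26, Mrps9, Mrpl19 and Mrpl12, with standard deviations of log2 values from 0.722 to 1.20. Mrpl55 was at 182, 205 and 165 in WT and at 228, 175, 34.3 and 443 in null, so that null 3 and null 4 held its lowest and its highest value. Mrps26 was at 133, 240.5 and 93.0 in WT and at 128, 42.0, 69.7 and 293 in null, and Mrps9 at 292, 579.8 and 567 in WT and at 323, 494, 673 and 119 in null. For Mrps9 the extremes were again null 3, here the highest, and null 4, the lowest. Mrpl19 was at 151, 181 and 174 in WT but between 59.6 and 317 in null.

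Among the 50 large-subunit members, 14 had a positive and 36 a negative log2 fold change, with a median of -0.10. Those with a bacterial counterpart numbered 7 positive and 23 negative (median -0.10), and those particular to mitochondria 7 positive and 13 negative (median -0.14). The large-subunit median lay between -0.19 and -0.07 under the 20 alternative settings. Among the 26 small-subunit members, 14 values were positive and 12 negative, and the median was 0.03, between -0.06 and 0.08 under the alternatives, with 7 below 0. Members with a bacterial counterpart were split 8 and 8 (median -0.03), and those particular to mitochondria 6 and 4 (median 0.07). The difference between the subunits was not tested, and 0 members of either passed the threshold.

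In the large subunit, Mrpl12 forms the flexible stalk that recruits translation factors, and it was at 374, 83.6 and 155 in WT and at 129, 177, 152 and 211 in null. WT 1 was its highest and WT 2 its lowest pool, so the null pools fell inside the range of WT, with a log2 fold change of -0.04 (SE 0.496). Mrpl44, which carries a ribonuclease III fold, was at 491, 463 and 612 in WT and at 555, 465, 646 and 442 in null. The groups overlapped throughout and the log2 fold change was 0.01 (SE 0.253). Mrpl3, near the peptidyl transferase centre in bacteria, was at 3243, 3890.0 and 3819 in WT and at 2856, 3494, 3399 and 3393 in null (log2 fold change -0.15, SE 0.127). Of the low members, Mrpl20 had the most negative fold change of the family, -0.79 with an SE of 0.762. Its pools were at 64.3, 24.7 and 125 in WT and at 31.4, 24.6, 32.4 and 50.2 in null, and the WT pools alone spanned nearly all of that range.

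In the small subunit, Mrps12 lies at the decoding centre and was one of the scarcest messengers. It was at 51.6, 28.5 and 34.6 in WT and at 39.0, 14.3, 147 and 56.5 in null, with null 3 far above the other pools. Mrps15 was at 461, 268 and 184 in WT and at 165, 155, 175 and 226 in null. WT 1 was the highest, WT 2 also lay above all null pools, and WT 3 fell inside their range. The log2 fold change of -0.67 (SE 0.397, limma adjusted p = 0.606) was thus accompanied by overlap of the groups. Mrps2, the fifth most abundant member per kb, was at 3028, 3560.2 and 2691 in WT and at 2877, 3162, 3085 and 3205 in null. Its group means were 3093 ± 438 (SD, n = 3) and 3083 ± 145 (SD, n = 4), with a log2 fold change interval of -0.27 to 0.28.

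The Mrps18 genes are 3 paralogs related to 1 bacterial protein: the products of Mrps18b and Mrps18c are placed in the small subunit and that of Mrps18a in the large one. Mrps18a was at 485, 415 and 433 in WT and at 466, 414, 505 and 412 in null. Mrps18b was at 323, 389.7 and 384 in WT and at 251, 335, 433 and 152 in null, and Mrps18c at 145, 153 and 101 in WT and at 115, 141, 185 and 182 in null. Per kb the order was Mrps18a with 431, Mrps18b with 300.2 and Mrps18c with 156. The log2 fold changes were 0.01 (SE 0.255), -0.42 (SE 0.366) and 0.22 (SE 0.437), and the groups overlapped for each paralog. Mrps36 carries a ribosomal name, but its product is now placed in the 2-oxoglutarate dehydrogenase complex of the citric acid cycle. It was at 1456, 1599.5 and 1275 in WT and at 1597, 1303, 1524 and 1068 in null, a log2 fold change of -0.08 (SE 0.182).

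**Figure D3:**
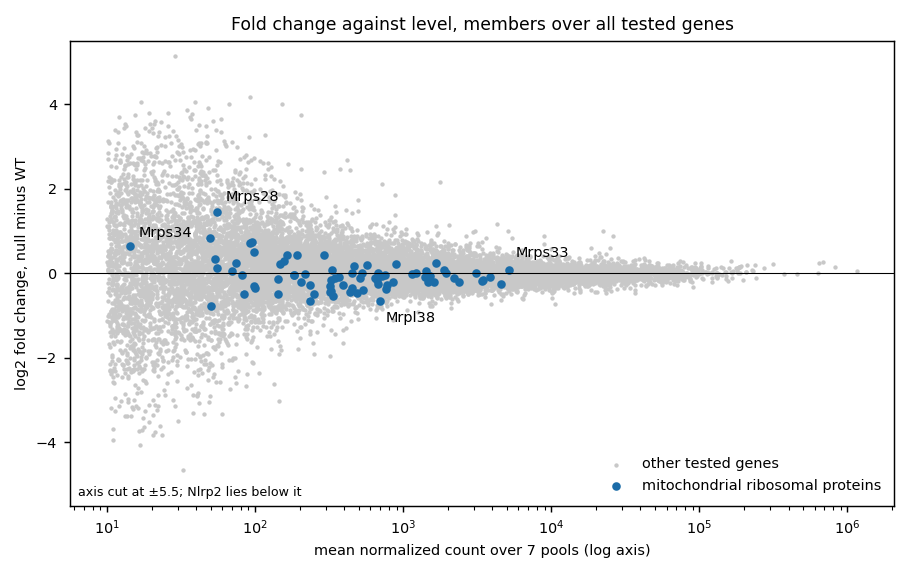
Log2 fold change, null minus WT, against the mean normalized count over the 7 pools (log axis); blue points are the 77 members and grey points the other tested genes. The members lie inside the cloud of all genes, which narrows as the level rises, and the member farthest from 0 is Mrps28 at 1.45.

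The precision of these comparisons followed the level. The median SE of the log2 fold change was 0.157 for members with a mean of 1000 or more, 0.312 for those between 100 and 1000 and 0.693 for those under 100. The median log2 fold changes of the same classes were -0.07, -0.14 and 0.23. The 95% interval lay wholly within a 1.5-fold change in either direction for 23 members (29.9%, against 35.9% of all tested genes). It lay within 2-fold for 44 members (57.1% against 54.3%) and within 4-fold for 71 (92.2%, against 11310 of the 15071). For 33 members a 2-fold change in 1 or the other direction was therefore inside the interval, and for these the data set no tight bound.

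The summed level of the 77 members was taken as a share of each pool's total normalized count, without correction for gene length. It was 0.0884%, 0.0825% and 0.0855% of WT 1 to WT 3 and 0.0799%, 0.0790%, 0.0753% and 0.0880% of null 1 to null 4. Null 3 was the lowest pool, null 1 and null 2 lay below all WT pools, and null 4 was within the range of WT. The group means were 0.0854% ± 0.00297 (SD, n = 3) and 0.0805% ± 0.00534 (SD, n = 4). The highest pool exceeded the lowest 1.17-fold for the members, 1.23-fold for the oxidative phosphorylation subunits and 1.86-fold for the cytosolic ribosomal proteins, whose share ran from 0.135% in WT 2 to 0.251% in null 4.

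**Figure D4:**
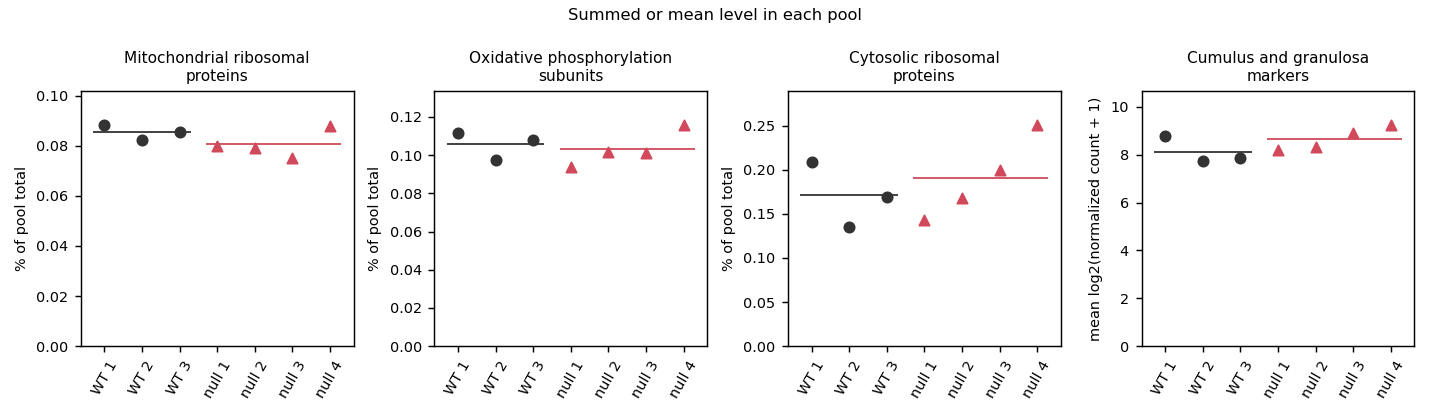
Summed level of the members, of the nuclear-encoded oxidative phosphorylation subunits and of the cytosolic ribosomal proteins as percent of each pool's total, and the mean log2(normalized count + 1) of the cumulus and granulosa markers; circles are WT pools, triangles null pools and lines group means. The members range from 0.0753% in null 3 to 0.0884% in WT 1, the cumulus markers are highest in null 4, and the cytosolic ribosomal proteins range from 0.135% to 0.251%.

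The cytosolic ribosomal proteins had a positive log2 fold change for 64 of 75 tested genes, with a median of 0.32. That median was -0.06 without null 3 and null 4, and between 0.06 and 0.59 under the other 19 alternatives. The value of 0.59 was that without WT 1, and the cause of these shifts was not tested. The oxidative phosphorylation subunits had a positive value for 50 of 76 and a median of 0.16. The members' median of -0.08 was -0.11 without null 3 and null 4. The 3 families share the same pools, and the difference between their medians was not tested.

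Single members moved in several directions within a pool. Null 3 was the highest pool for 18 members and at the same time the lowest for 20, and null 4 was the highest for 14 and the lowest for 14. WT 1 was above the member's own mean for 52 of the 77 and null 2 for 23. Taking both groups together, the lowest pool was a null pool for 52 members and a WT pool for 25, and the highest was a null pool for 43 and a WT pool for 34. With 4 null pools against 3 WT pools, either extreme falls more often in a null pool even without a difference. The share over all tested genes was not computed. Among the 19 members with a mean of 1000 or more, null 3 was the lowest pool for 7. The highest pool exceeded the lowest by a median of 1.96-fold over all members and 1.45-fold over these 19, and the 3 WT pools alone differed by a median of 1.37-fold.

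**Figure D5:**
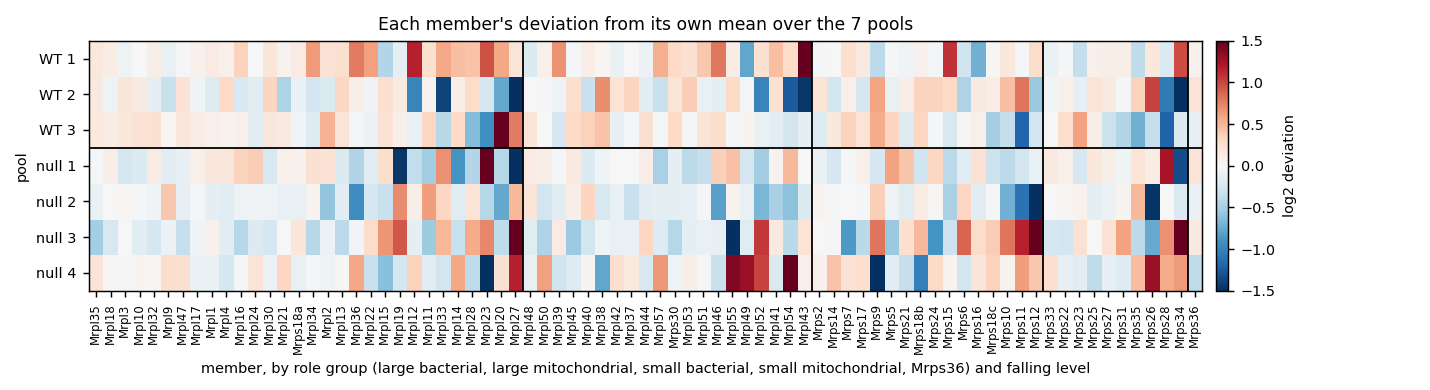
Deviation of each member's log2(normalized count + 1) in a pool from its own mean over the 7 pools (rows pools, columns members by role group and falling level; colours saturate at 1.5 in either direction). Colours deepen toward the low members of each group, and null 3 holds both strong red and strong blue columns, being highest for 18 members and lowest for 20.

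Library numbers in the labels fall into a lower range (WT 1, WT 2, null 1 and null 2) and a higher range (WT 3, null 3 and null 4), and what the number marks is not stated there. Within the lower range the median difference of the members, null minus WT on the log2 scale, was -0.11, with 46 of 77 negative. Within the higher range it was 0.00055, with 38 negative, and all tested genes had medians of 0.0056 and -0.012. The sign was the same in both ranges for 35 members, 21 of them lower and 14 higher in null. Mrpl38 had differences of -0.51 and -0.84 in the lower and the higher range, Mrps30 of -0.39 and -0.55, Mrpl30 of -0.41 and -0.34, Mrpl13 of -0.46 and -0.38, and Mrps28 of 1.27 and 1.82. These are the members whose groups did not overlap, so an equal sign in both ranges was fixed in advance for them. The higher range held only 1 WT pool, so these are values with no test.

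The members are spread over 17 chromosomes. In 19 of them (24.7%) a coding gene on the other strand starts within 1000 bases upstream (an overlap of up to 100 bases allowed), an arrangement found for 9.88% of the 13723 tested coding genes with an annotation. Of the 19 partners, 0 were called by limma. Mrpl32 thus starts beside Psma2, a proteasome subunit (log2 fold changes -0.11 and -0.04). Mrps18c starts beside the helicase gene Helq (0.22 and -0.08), and Mrpl36 beside Ndufs6, a complex I subunit (-0.49 and -1.11, where Ndufs6 had an adjusted p of 0.504 by limma). Mrps12 starts beside Sars2, the mitochondrial seryl-tRNA synthetase (0.33 and -0.41).

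No source states a strand setting for the counting, so overlapping genes may share reads. Exons of another annotated gene overlap those of 32 members (41.6%, against 34.8% of the tested coding genes), on the opposite strand in 27 and on the same strand in 8. Mrpl46 and Mrps11 overlap each other head to head on chromosome 7 in GENCODE, and their values are uncertain in that sense. By their RefSeq starts these genes diverge without overlap. Mrpl46 was at 549.9, 285 and 381 in WT and at 408, 179, 291 and 251 in null, and Mrps11 at 62.2, 111 and 27.2 in WT and at 52.0, 28.7, 141 and 98.4 in null. Mrps34 overlaps Nme3 on its own strand and Mapk8ip3 on the other, Mrpl13 overlaps Mtbp and Mrps30 the transcript B430218F22Rik. The 45 members without such an overlap had a median log2 fold change of -0.08, and the 32 with one -0.06. Annotated pseudogenes carry the name of 3 members: 1 of Mrpl23, 1 of Mrpl48 and 3 of Mrps36, whose reads may be divided among the copies.

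Promoter windows of RefSeq (GRCm38.p6), from 250 bases before to 50 after the start, were matched for 68 of the 77 members. They were searched on both strands for the motif of NRF1, a nuclear regulator of genes for mitochondria, written GCGCA, any base, GCGC, and for the ETS family motif CCGGAAGT; these letters do not contain each other. Some members, such as Mrpl48, had several windows, and a match in any of them counted for the member. The NRF1 motif was found for 13 of the 68 members (19.1%). It was found for 5.19% of 27025 genes with a window and for 10.2% of the 11399 of them that were tested here. The ETS motif was found for 12 members (17.6%), against 4.31% and 8.04%. Mrps26 had both. A match of letters is a description of the sequence and not of binding in the oocyte.

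Shown are the 250 bases before the start, 5′ to 3′ on the strand of the gene, of 4 members: an abundant one, 1 of those whose groups did not overlap, 1 with a divergent neighbour and the one with both motifs. Capitals mark the motif, and positions count from the start.
Mrps22 (chr9:98601680-98601929, minus strand; ETS at -11): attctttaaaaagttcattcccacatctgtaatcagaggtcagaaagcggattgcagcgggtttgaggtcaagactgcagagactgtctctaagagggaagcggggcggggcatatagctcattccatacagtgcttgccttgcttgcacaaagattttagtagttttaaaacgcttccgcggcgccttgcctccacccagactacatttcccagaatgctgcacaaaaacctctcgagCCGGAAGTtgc
Mrpl30 (chr1:37890227-37890476, plus strand; NRF1 on the other strand at -83): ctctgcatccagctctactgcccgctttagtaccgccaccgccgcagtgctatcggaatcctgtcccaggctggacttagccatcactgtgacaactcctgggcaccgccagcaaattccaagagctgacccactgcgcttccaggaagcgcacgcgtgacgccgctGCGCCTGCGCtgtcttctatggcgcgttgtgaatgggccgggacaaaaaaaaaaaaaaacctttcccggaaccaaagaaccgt
Mrpl32 (chr13:14613038-14613287, minus strand; NRF1 at -87, which reads on both strands): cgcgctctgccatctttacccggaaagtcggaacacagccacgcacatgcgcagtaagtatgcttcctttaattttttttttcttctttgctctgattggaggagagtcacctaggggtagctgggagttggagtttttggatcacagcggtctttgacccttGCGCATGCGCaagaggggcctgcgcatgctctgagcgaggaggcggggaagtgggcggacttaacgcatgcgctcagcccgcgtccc
Mrps26 (chr2:130563507-130563756, plus strand; ETS on the other strand at -15): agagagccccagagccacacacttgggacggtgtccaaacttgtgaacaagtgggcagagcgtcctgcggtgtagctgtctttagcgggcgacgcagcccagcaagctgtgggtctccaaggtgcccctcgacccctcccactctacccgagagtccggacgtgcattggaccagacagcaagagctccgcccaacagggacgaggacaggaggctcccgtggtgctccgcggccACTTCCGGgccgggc
In Mrps26 the NRF1 matches begin at -2 and 4, cross or follow the start and are not shown. These members differed widely in level per kb. Mrps22 was among the 5 highest with 2825, Mrps26 among the 5 lowest with 33.4, and Mrpl30 and Mrpl32 were at 549 and 725.

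Genes that work with the mitochondrial ribosome gave the following counts, from lists chosen with earlier results of these data known. Of 6 ribosomal proteins under other names, 2 had positive and 4 negative log2 fold changes, and 0 had an unadjusted p under 0.05 (limma). Dap3, a GTP-binding protein of the small subunit, was at 4337, 4260 and 5112 in WT and at 4351, 4474, 4463 and 4973 in null, a log2 fold change of 0.00 (SE 0.115). Ict1, a peptidyl-tRNA hydrolase built into the large subunit, was at 620.5, 414 and 510.5 in WT and at 452, 416, 329.6 and 291 in null (log2 fold change -0.47, limma adjusted p = 0.612). Chchd1, of the small subunit, had a value of 0.97 with an SE of 0.834.

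Of 24 tested genes for assembly of the ribosome and modification of its RNA, 2 had an unadjusted p under 0.05 (limma), both lower in null. That is 8.33% of the list against 10.2% of all tested genes, a share near the background. Ddx28, a helicase of large-subunit assembly, was at 2918, 2649 and 2574 in WT and at 1713, 2115, 2092 and 1501 in null. The groups were clearly apart, the log2 fold change was -0.56 (SE 0.155), and the adjusted p was 0.219 by limma, 0.287 by edgeR and 0.0490 by DESeq2, so DESeq2 alone called it. Mterf3, which acts on mitochondrial transcription and large-subunit assembly, had a log2 fold change of -0.48 (limma adjusted p = 0.478).

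The mitochondrial translation factors numbered 8 positive and 7 negative values of 15, with 0 at an unadjusted p under 0.05 (limma). Mtif2, the initiation factor, had a log2 fold change of 0.29 (limma adjusted p = 0.571) and Tsfm, an elongation factor, of -0.46 (limma adjusted p = 0.611). Among 17 mitochondrial aminoacyl-tRNA synthetases, 2 had an unadjusted p under 0.05 (limma), both higher in null. Their share, 11.8%, is again near the 10.2% of all tested genes. Vars2, for valine, was at 1308, 1076 and 994 in WT and at 1817, 1476, 1635 and 1722 in null, without overlap. With an SE of 0.168 its log2 fold change came to 0.57 (limma adjusted p = 0.257), and Lars2, for leucine, had one of 0.24 (limma adjusted p = 0.480). Of 8 genes that transcribe and copy mitochondrial DNA, 0 had an unadjusted p under 0.05 (limma): Ssbp1, a single-strand binding protein, had a log2 fold change of 0.41 and Tfam, which packages the DNA, one of -0.33.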

How the data were processed

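RNA from 3 WT and 4 Nlrp2-null pools was amplified with oligo d(T) and random primers (NuGEN) and sequenced on an Illumina HiSeq, per the labels' protocols. Amplified reads are not independent molecules. The deposited table of genes gives each symbol a signal in every pool: a count over that pool's size factor, the form in which DESeq2 writes normalized counts, per the file headers. Whole reads were recovered for 100% of its values (tolerance 0.01 of a read). The submitters' processing notes name the aligners STAR 2.5.0a and TopHat2 2.0.9, the counters featureCounts 1.5.0-p1 and HTSeq, and also DESeq2 1.22.2, DESeq and HOMER, on GRCm38 (mm10). Their part in making the table, the annotation and any strand setting are not given in the sources used. A second table, of transcripts without symbols, was not used.

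Groups came from the labels. limma 3.58.1 (R 4.3.3) with a variance trend was fitted to log2(normalized count + 1) in all 7 pools with no covariate, using the 15071 genes whose mean was at least 10. Tests were two-sided, the added 1 makes fold changes of low genes too small, and a gene was called where its Benjamini-Hochberg adjusted p was under 0.05. edgeR 4.0.16 (quasi-likelihood, 7 genes called) and DESeq2 1.42.0 (200 called) were run on the recovered reads as alternatives, beside other settings given in the closing section. The fits were tested on simulated data. Sets of members were described by counts and medians, with no set test. Lengths (joined exons of coding transcripts in the basic set), positions and overlaps (at least 1 base of exon) came from GENCODE M21 (GRCm38). No pair of pools in a group agreed within sampling noise (lowest chi-square per degree of freedom 38.2).

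The members and the lists were chosen with earlier results of these data known. The rule for named members took those with an unadjusted p under 0.05, the 5 highest and the 5 lowest per kb, the 5 with the largest and the 5 with the smallest spread within groups at a mean of at least 100, and Mrps18a, Mrps18b, Mrps18c, Mrps30, Mrps36, Mrpl12, Mrps12 and Mrpl44, 23 in all. Of each other mitochondrial list the 2 genes with the smallest p were named. Further members (such as Mrps28, Mrpl13, Mrpl35, Mrps15, Mrpl20, Mrpl3 and Mrpl32) and the gene Dap3 were chosen after their values were seen.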

Additional observations from a re-analysis of the deposited data

How the results depend on the processing

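Under all 20 alternatives 0 members were called, the members' median log2 fold change stayed between -0.16 and -0.05, and between 45 and 56 of the 77 members had a negative value; under the filter at a mean of 100, which leaves out 15 members, 44 of the rest did. The number of members with an unadjusted p under 0.05, 1 in the reported fit (limma), was 2 with a pseudocount of 10, 2 with DESeq2, 5 without the variance trend, and between 0 and 2 when 1 pool was left out, the 0 being without WT 2. Over all genes, 10 were called in the reported fit, 6 after equalizing medians, 200 with DESeq2, 0 without the variance trend and between 2 and 16 when 1 pool was left out. Without the variance trend 1252 genes had an unadjusted p under 0.05. With medians equalized, 553 genes were higher and 881 lower at an unadjusted p under 0.05, against 795 and 743. An alternative added after seeing the data, without null 3 and null 4, called 0 genes, with 1080 at an unadjusted p under 0.05, and its 1 member at that level was Mrpl36.

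A fit with the replicate number as a block over pools 1 to 3 called 1 gene, no member, and gave a median of -0.10 over the members; its 1 member with an unadjusted p under 0.05 was Mrpl35. Same-numbered pools share a replicate number and a library number range, and the labels state no pairing. Their deviations correlated at -0.16, 0.02 and -0.01, and WT 1 correlated best with null 4 and WT 2 with null 1. With so few pools, these correlations cannot show whether the pools were paired.

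Log2 fold changes of members near 0 or with a wide spread changed sign under some alternatives, also outside the named members, as for Mrpl27 (-0.53 to 1.78) and Mrps11 (-0.56 to 0.70). Of the named members, with the block the values were 0.19 for Mrpl15, 0.040 for Mrpl19, -0.016 for Mrps2, 0.031 for Mrps36 and 0.053 for Mrps9. With edgeR and TMM they were 0.046 for Mrpl15, 0.22 for Mrpl19, 0.26 for Mrpl55 and -0.0021 for Mrps2; with the deposited size factors 0.043, 0.22, 0.25 and -0.0048; and with DESeq2 0.043, 0.22, 0.25 and -0.0045. Equal medians gave -0.051 for Mrpl44, -0.045 for Mrps18a and -0.056 for Mrps2, quantile normalization -0.065 for Mrpl44 and -0.070 for Mrps18a, and the library number range as covariate -0.023 for Mrpl44. Without null 3 and null 4 the values were 1.9e-05 for Mrpl18, -0.028 for Mrpl44, 0.12 for Mrpl55, -0.62 for Mrps12, -0.014 for Mrps18a, -0.041 for Mrps18c, -0.027 for Mrps2, -0.40 for Mrps34 and 0.0051 for Mrps36. Leaving out 1 pool at a time gave ranges of -0.55 to 0.53 for Mrpl12, -0.24 to 0.19 for Mrpl15, -0.36 to 0.44 for Mrpl19, -0.10 to 0.13 for Mrpl44, -0.72 to 0.50 for Mrpl55, -0.22 to 0.88 for Mrps12, -0.044 to 0.078 for Mrps18a, -0.092 to 0.11 for Mrps2, -0.10 to 1.32 for Mrps34, -0.17 to 0.031 for Mrps36 and -0.78 to 0.053 for Mrps9. The cause was not tested. With a filter at a mean of 100, the 15 members below it had no value, among them Mrps12, Mrps34, Mrpl11, Mrps28 and Mrpl20. Members under a mean of 100 were the least precise, with a median SE of 0.693.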
